A study of Homo sapiens with 4 samples.

Results

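Cohesin loops that span 10 to 30 kb are the shortest class listed in SMC1 HiChIP maps of GM12878, a B cell line that was immortalised with Epstein-Barr virus. They were chosen by span alone, taken as the distance between the starts of the 2 anchor bins of 5 kb each, on chromosomes 1 to 22 and X. Of 41846 loops listed in any of the 4 libraries, 5797 are of this class, and 629 of these are listed in all 4 libraries. HiChIP ligates DNA ends that lie close together in fixed chromatin and then enriches, with an antibody, the contacts held by one protein, here the cohesin subunit SMC1. Per the labels, 1 culture received 0.4 µM aphidicolin (APH, which inhibits replicative DNA polymerases) for 18 h and was set against 1 culture with its solvent dimethyl sulfoxide (DMSO). Another received 0.2 mM hydroxyurea (HU, which depletes deoxynucleotides) for 18 h and was set against 1 culture with water (H2O). Each group is 1 library of 1 cell line, so every difference below compares libraries and has no replicate check. The titles of the samples carry the name of a different lymphoblastoid line, whereas their source and library names give GM12878.

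Cohesin is a ring complex that extrudes loops of chromatin until it meets a barrier, most often the zinc finger protein CTCF bound in a set orientation. Loops as short as these lie inside larger domains and can link a promoter with an enhancer close by, or both ends of 1 gene. Contacts between neighbouring bins are frequent by proximity alone, so a short loop has to stand out above a high expected count. A count is summed over a population of cells, so contacts in fewer cells and rarer contacts per cell cannot be told apart.

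The files give no anchor sequences, and 5 promoters that lie in anchors of loops described below are therefore shown. They belong to the loop with most counts (COXFA4L3), to 2 loops higher in both drug libraries (KCNH2 and KLHDC9), and to a promoter-to-promoter loop among those with most counts (GNG8 and DACT3). Sequences are from RefSeq on GRCh38.p14, printed 5′ to 3′ on the strand of the gene, with 250 bases before the start. Capitals mark the 50 bases from the annotated start onwards and, in DACT3, the match to the CTCF core motif.
COXFA4L3, chr15:45430360-45430659, plus strand: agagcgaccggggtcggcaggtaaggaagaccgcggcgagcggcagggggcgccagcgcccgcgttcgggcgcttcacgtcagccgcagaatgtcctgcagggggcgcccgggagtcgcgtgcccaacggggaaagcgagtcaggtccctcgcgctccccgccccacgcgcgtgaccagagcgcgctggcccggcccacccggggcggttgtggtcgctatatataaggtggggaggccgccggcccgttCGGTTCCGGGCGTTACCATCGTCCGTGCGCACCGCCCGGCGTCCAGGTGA
KCNH2, chr7:150960007-150960306, minus strand: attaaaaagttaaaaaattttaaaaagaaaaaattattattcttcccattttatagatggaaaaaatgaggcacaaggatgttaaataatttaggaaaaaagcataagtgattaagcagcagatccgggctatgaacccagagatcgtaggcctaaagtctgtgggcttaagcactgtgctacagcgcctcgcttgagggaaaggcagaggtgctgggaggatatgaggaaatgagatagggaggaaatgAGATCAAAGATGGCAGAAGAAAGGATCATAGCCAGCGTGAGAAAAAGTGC
KLHDC9, chr1:161098111-161098410, plus strand: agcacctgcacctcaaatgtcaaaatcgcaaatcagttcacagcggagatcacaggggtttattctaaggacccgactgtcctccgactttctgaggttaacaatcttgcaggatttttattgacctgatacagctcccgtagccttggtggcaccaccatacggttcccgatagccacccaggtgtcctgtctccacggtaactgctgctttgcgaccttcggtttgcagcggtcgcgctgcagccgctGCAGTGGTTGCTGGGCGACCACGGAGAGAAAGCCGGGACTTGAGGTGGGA
GNG8, chr19:46636153-46636452, minus strand: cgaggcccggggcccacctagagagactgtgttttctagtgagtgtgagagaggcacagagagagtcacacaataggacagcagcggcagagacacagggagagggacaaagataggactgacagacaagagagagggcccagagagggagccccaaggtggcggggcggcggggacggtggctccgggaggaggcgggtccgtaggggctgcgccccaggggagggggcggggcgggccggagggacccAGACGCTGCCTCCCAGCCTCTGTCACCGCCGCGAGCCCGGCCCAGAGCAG
DACT3, chr19:46661133-46661432, minus strand: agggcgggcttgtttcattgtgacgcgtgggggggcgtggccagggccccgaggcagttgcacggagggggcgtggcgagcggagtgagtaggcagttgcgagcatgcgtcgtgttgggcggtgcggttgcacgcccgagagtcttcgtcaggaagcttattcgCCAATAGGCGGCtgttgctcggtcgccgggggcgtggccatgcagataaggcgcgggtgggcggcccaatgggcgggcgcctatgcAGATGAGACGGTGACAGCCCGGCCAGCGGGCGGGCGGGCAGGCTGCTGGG

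The motif searched for was a simplified core of the CTCF motif, set from general knowledge and matched exactly. It was CCA followed by any 2 bases, AG, any 2 bases and GGC, on both strands of the 300 bases around each gene start. A match was found in 2.52% of all 22132 promoters. Of 1647 promoters whose start lies in an anchor of a 10 to 30 kb loop, 53 did (3.22%), and of 279 in anchors of loops listed in all 4 libraries, 11 did (3.94%). The shares were 3.67% for starts in anchors of 35 to 60 kb loops, 3.66% for loops of 65 kb or more and 2.19% for starts in no anchor. Promoter windows of short loops thus held these letters at about the share of those of longer loops. In DACT3 the match lies on the strand of the gene, at position 165 of the window, and the other 4 promoters shown hold no exact match. Sites that depart from this pattern were not searched for, so a CTCF site there is not excluded.

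The share of each list taken by loops of 10 to 30 kb was 11.2% in APH (3077 of 27395 loops, exact 95% binomial interval 10.9 to 11.6) and 9.74% in DMSO (1720 of 17660, 9.31 to 10.2). It was 11.9% in HU (2551 of 21448, 11.5 to 12.3) and 10.8% in H2O (2417 of 22446, 10.4 to 11.2). These loops held 15.1% of the listed contact counts in APH and 12.9% in DMSO, and 15.7% in HU and 14.6% in H2O. In each pair the drug library had the larger share, and its interval did not meet that of its vehicle. With a minimum of 24 counts the intervals of HU and H2O overlapped, at 20.2% and 19.9%. Intervals cover counting error only and may be too narrow, since PCR copies without molecular identifiers may be counted more than once. Total depth is unknown, since the lists hold called loops alone, with 732695 counts in APH, 449565 in DMSO, 550828 in HU and 575756 in H2O.

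From 15 to 35 kb the share of the list rose with span in each library, and the H2O library stood apart at the shortest step. Loops of 10 kb made up 1.73% of the APH list (473 loops) and 1.81% of the DMSO list (320), and 1.86% of the HU list (399) but 2.88% of the H2O list (647, interval 2.67 to 3.11). With counts thinned to the lowest total, the 10 kb step held 2.07% in APH, 1.81% in DMSO, 1.98% in HU and 3.11% in H2O. Thinning was to totals over loops listed in all 4 libraries, and afterwards only the lowest listed count of 12 was applied again. This removes loops with few counts, which are more often long ones, so it favours short loops and does not equalise depth. From 15 to 30 kb the order was another one, with 9.51% of the list in APH and 7.93% in DMSO, and 10.0% in HU and 7.89% in H2O. Without the 10 kb step the vehicles lay side by side and both drug libraries above them. At the upper limit of the class, loops of 30 kb numbered 801 in APH, 430 in DMSO, 635 in HU and 520 in H2O. Loops of 35 kb, just outside it, numbered 805, 459, 693 and 573 in the same libraries, so the limit cuts through a continuous range.

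**Figure D1:**
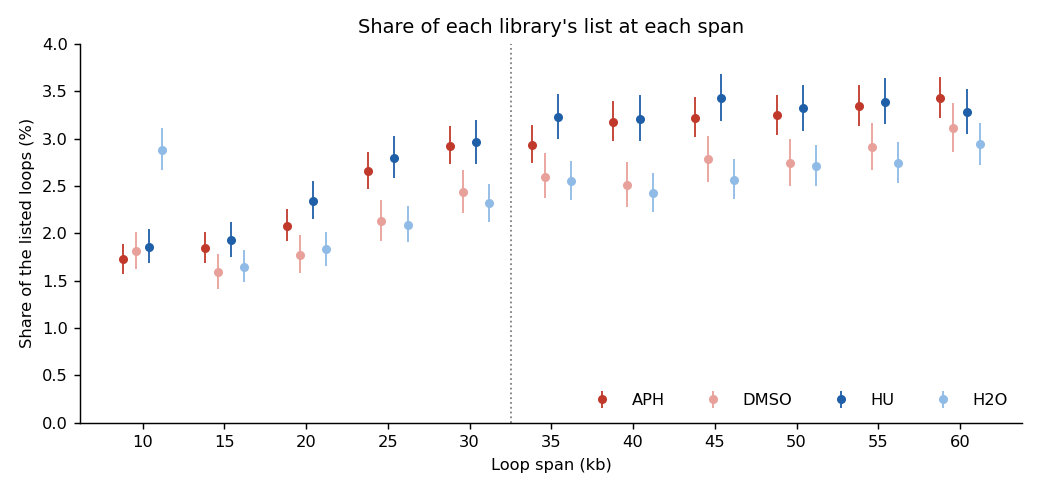
Share of each library's listed loops (percent, vertical axis) at each span from 10 to 60 kb (horizontal axis), with exact 95% binomial intervals that cover counting error, and a dotted line above 30 kb. H2O lies alone at 2.88% at 10 kb, and at each step from 15 to 60 kb the APH and HU points lie above those of their own vehicles.

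The extra 10 kb loops of the H2O library were mostly its own. H2O listed 441 loops of 10 kb that no other library listed, against 262 in APH, 161 in DMSO and 200 in HU. Both anchors lay in the body of 1 gene for 61.7% of these H2O loops (57.0 to 66.2), against 48.5% in APH, 52.8% in DMSO and 50.5% in HU. This was not particular to the 10 kb step. Among loops of 15 to 30 kb listed in 1 library the share was also largest in H2O. It was 49.1% there, against 41.3% in APH, 39.9% in DMSO and 36.0% in HU. For 15.6% of the 10 kb loops listed in H2O alone, another library listed a loop, of any span, with each anchor within 1 bin. This share was 19.5% in APH, 31.1% in DMSO and 22% in HU. The median count of the 10 kb loops listed in 1 library was 26 in H2O, against 24.5 in APH, 23 in DMSO and 24 in HU. Because the H2O library is the vehicle of HU, values of HU vs DMSO are given below beside those of HU vs H2O where the 10 kb step bears on them.

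Short loops were listed in fewer libraries than long ones. Of the 5797 loops, 62.4% were listed in 1 library and 10.9% in all 4. For loops of 35 to 60 kb these shares were 48.9% and 19.3%, and for loops of 65 kb or more 41.5% and 26.2%. Within the class the share listed in all 4 libraries went up with span, with 3.43% at 10 kb (47 of 1369), 7.87% at 15 kb, 12.3% at 20 kb, 13.9% at 25 kb and 17.3% at 30 kb (217 of 1253). Of the APH loops of 10 to 30 kb, 33.6% were listed in DMSO with the same bins, and of the DMSO loops 60.1% were listed in APH. Of the HU loops 41.2% were listed in H2O and 51.7% in APH, and of the H2O loops 43.5% were listed in HU. The lists differ in length, so these shares cannot be ranked between libraries.

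The caller's limits act on short loops in another way than on long ones. Every listed loop had at least 12 counts and an observed count at least 2 times the expected count. The median 10 to 30 kb loop had 29 counts in APH, 28 in DMSO, 28 in HU and 29 in H2O, where loops over 30 kb had a median of 19 in each. Their median ratio of observed to expected count was 2.86 in APH, 2.96 in DMSO, 2.95 in HU and 2.79 in H2O. Loops of 65 kb or more stood at 5.99, 6.68, 6.31 and 6.24 in the same libraries. A ratio under 2.2 was found in 11.5% of the short loops in APH, 8.49% in DMSO, 8.43% in HU and 11.4% in H2O, and in 0.20%, 0.15%, 0.16% and 0.14% of those of 65 kb or more. Conversely, counts under 15 made up 4.13%, 5.41%, 4.98% and 2.65% of short loops, and 25.7%, 27.6%, 27.8% and 27.8% of those of 65 kb or more. Short loops were thus well counted but close to the limit of 2.

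**Figure D2:**
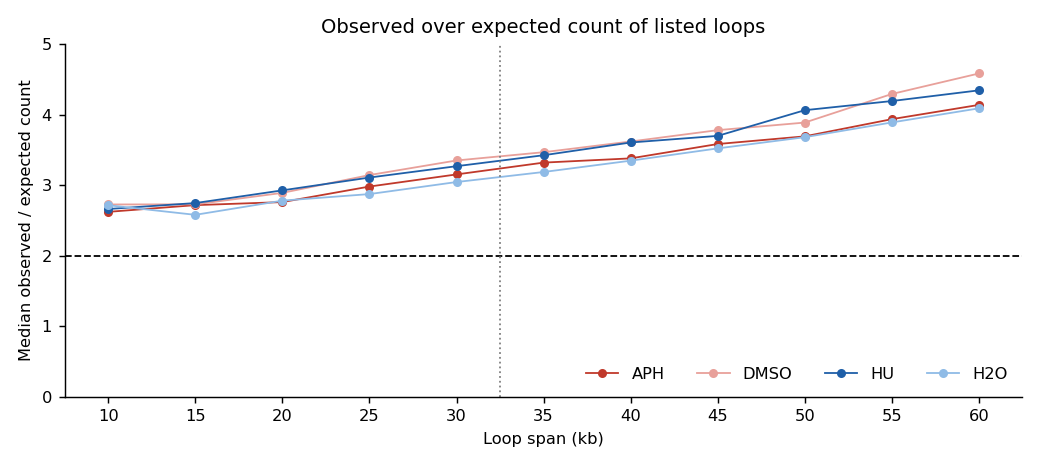
Median ratio of observed to expected count of the listed loops (vertical axis) at each span from 10 to 60 kb (horizontal axis) in the 4 libraries, with the lowest listed ratio of 2 as a dashed line and a dotted line above 30 kb. From 15 kb on the median rises with span in each library, and all 4 libraries lie between 2.62 and 2.73 at 10 kb.

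A loop with many counts was missing from 1 list near DAD1, which encodes a subunit of the oligosaccharyltransferase. It spans 10 kb (chr14:22555001-22570000) with its second anchor in DAD1, and is the only loop among the 10 with most counts that 1 library does not list. It had 226 counts in APH and 188 in DMSO, and 215 in H2O, and HU does not list it. Its observed to expected ratio was 2.55 in APH, 2.55 in DMSO and 2.38 in H2O, a little below the median of 10 kb loops in each library.

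Short loops lay within genes more often than longer loops. Both anchors overlapped the body of 1 protein-coding gene for 42.2% of the 5797 loops, against 27.7% of loops of 35 to 60 kb and 13.1% of loops of 65 kb or more. Span itself bears on this share and was not adjusted for. Among loops listed in all 4 libraries the share was 28.5%. Of single anchors, 66.2% overlapped a gene body and 15.2% held an annotated gene start, against 65.9% and 15.5% at 35 to 60 kb and 58.8% and 11.3% at 65 kb or more. Gene starts lay in both anchors of 192 short loops (3.31%) and in 1 anchor of 1382 (23.8%).

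Anchors of short loops were mostly not those of long ones. In APH 57.7% of the 10 to 30 kb loops had no anchor bin in common with a loop of 65 kb or more, in DMSO 62.7%, in HU 60.6% and in H2O 65.7%. For loops of 35 to 60 kb this share was 30.8% in APH, 37.2% in DMSO, 37.3% in HU and 33.5% in H2O. By chromosome, short loops were the largest share of loops on chromosome 19 (395 of 2103, 18.8%) and on chromosome 21 (18.1%), and the smallest on chromosome 4 (134 of 1486, 9.02%).

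The loops with most counts, summed over the scaled libraries, lay at 10 places. First was a 25 kb loop on chromosome 15 from the promoter of COXFA4L3, shown above, to SLC30A4-AS1, with 388 counts in APH and 204 in DMSO, and 322 in HU and 258 in H2O. APH stood above DMSO there by 0.60 on the log2 scale (0.35 to 0.85), HU above H2O by 0.34 (0.09 to 0.58), and H2O against DMSO at 0.22 (-0.05 to 0.49). A 25 kb loop on chromosome 12 (57210001 to 57240000) joined LRP1, an endocytic receptor gene, to COXFA4L2 over SHMT2, a serine hydroxymethyltransferase of mitochondria. It had 233 counts in APH and 146 in DMSO, and 196 in HU and 153 in H2O. A 25 kb loop on chromosome 19 reached KMT2B, a histone H3 lysine 4 methyltransferase gene, and ZBTB32, a repressor in lymphocytes, with 183 and 174, and 193 and 168 counts in that order of libraries. This loop was not higher with APH, where the log2 ratio was -0.26 (-0.56 to 0.05).

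The other loops among the 10 lie at genes of varied roles. A 20 kb loop from the HOOK2 promoter to PRDX2, a peroxiredoxin gene, encloses JUNB, an AP-1 transcription factor gene, on chromosome 19 (12775001 to 12800000). It had 185 counts in APH and 124 in DMSO, and 144 in HU and 171 in H2O, so the drug libraries lie on both sides of their vehicles. The interval of each ratio included 1, at 0.25 (-0.09 to 0.59) when APH is set against DMSO and -0.23 (-0.56 to 0.10) when HU is set against H2O. TLR10, a Toll-like receptor gene expressed in B cells, anchored a 20 kb loop with 179 and 127, and 133 and 128 counts. A 25 kb loop around CLCF1, a cytokine gene, had 204 and 129, and 167 and 171 counts. GNG8, a G protein gamma subunit gene, and DACT3, a Wnt pathway antagonist, are joined at their promoters by a 25 kb loop with 133 and 108, and 182 and 144 counts. A 10 kb loop at ACY3 had 166 and 147, and 140 and 151 counts, with log2 ratios of -0.15 and -0.09 whose intervals included 0.

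A pair of overlapping loops at ZNRD2 and FAM89B on chromosome 11 differed from each other. The 15 kb loop to EHBP1L1 had 171 counts in APH and 130 in DMSO, and 155 in HU and 145 in H2O, with a log2 ratio of 0.07 (-0.27 to 0.41) for APH vs DMSO. The 20 kb loop from the same first anchor to the next bin, which also holds KCNK7, had 55 and 74, and 60 and 55 counts. There APH stood below DMSO at -0.76 (-1.29 to -0.23), but H2O also stood below DMSO, at -0.54 (-1.08 to -0.02).

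The 629 loops that all 4 libraries list were then compared by their counts, each library scaled by its total over the 9529 loops of every span listed in all 4. The rest of the class is missing from at least 1 list and has no ratio here. Pooled over the 629, APH stood above DMSO at a log2 ratio of 0.10 (0.08 to 0.12), which turned to -0.28 when each library was scaled by all its listed loops. HU stood above H2O at 0.12 (0.09 to 0.14), or 0.16 with that scaling, and H2O vs DMSO was 0.02 (-0.00 to 0.04), or -0.22 with it. A total over all listed loops moves with how much was called, and using it adds -0.38 to each log2 ratio of APH vs DMSO, 0.05 to HU vs H2O ratios and -0.24 to those of H2O vs DMSO. With the vehicles exchanged, APH vs H2O was 0.08 and HU vs DMSO 0.14, and both would turn negative when scaled by all listed loops. The APH vs DMSO ratio was 0.045 after division by the expected count and 0.17 when scaled by shared loops of 100 kb or more. The HU vs H2O ratio was 0.19 with the 100 kb scaling and 0.068 over the 1051 loops listed in both its libraries. Loops of 35 to 60 kb gave nearly the same values, where APH vs DMSO was 0.09 (0.07 to 0.10) and HU vs H2O was 0.11 (0.10 to 0.13). Loops of 65 kb or more stood at -0.04 and -0.05. The 10 to 30 kb class therefore did not differ from the next longer one beyond the intervals.

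The shortest step did not follow the rest. The 47 loops of 10 kb in all 4 libraries had 2713 counts in APH and 2219 in DMSO, and 2336 in HU and 2510 in H2O. In APH vs DMSO their log2 ratio was -0.04 (-0.12 to 0.04), whereas HU vs H2O gave -0.09 (-0.17 to -0.01). Against the other vehicle the values were -0.10 (-0.18 to -0.02) for APH vs H2O and -0.03 (-0.11 to 0.06) for HU vs DMSO. Loops of 15 to 30 kb stood at 0.11 (0.09 to 0.13) and 0.13 (0.11 to 0.16), and each of those steps lay above 0 in both contrasts, for APH vs DMSO under this scaling and not when all listed loops set the scale.

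**Figure D3:**
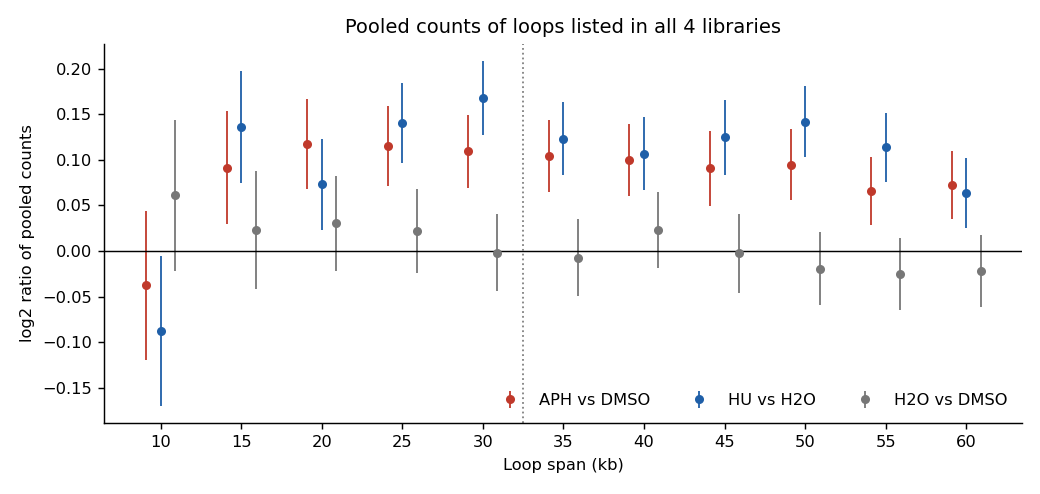
Log2 ratio of pooled counts (vertical axis) at each span from 10 to 60 kb (horizontal axis) for APH vs DMSO, HU vs H2O and H2O vs DMSO, over loops listed in all 4 libraries, with exact 95% intervals that cover counting error, and a dotted line above 30 kb. Both drug contrasts are above 0 from 15 to 60 kb and not at 10 kb. Scaling by all listed loops would shift the APH vs DMSO points by -0.38, below 0.

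Pooled drug to vehicle ratios were higher with anchors in different genes than with both in 1 gene, in part with overlapping intervals. Where the anchors lay in different genes (121 loops), HU stood above H2O at 0.21 (0.16 to 0.26) and APH above DMSO at 0.12 (0.07 to 0.17). Where both lay in 1 gene (179 loops), the values were 0.03 (-0.01 to 0.08) and 0.07 (0.03 to 0.11). In that set H2O stood above DMSO at 0.06 (0.01 to 0.10). With the vehicles exchanged, HU vs DMSO was 0.18 (0.13 to 0.23) for different genes and 0.09 (0.05 to 0.14) for 1 gene, and APH vs H2O was 0.15 (0.10 to 0.20) and 0.01 (-0.03 to 0.05). The intervals of these position classes did not overlap in either contrast with H2O and overlapped in both contrasts with DMSO. The position classes were not matched for span. Of all listed 10 kb loops 51.6% in APH, 53.1% in DMSO, 51.6% in HU and 60.4% in H2O lay in 1 gene. At 15 to 30 kb these shares were 36.2%, 34.1%, 33.0% and 38.3%. Whether span bears on the difference between position classes was not tested. With 1 anchor in a gene (189 loops) the values were 0.11 for HU vs H2O and 0.09 for APH vs DMSO, and with none (140 loops) 0.14 and 0.12. For the 24 loops with gene starts in both anchors they were 0.15 (0.04 to 0.26) and 0.01 (-0.10 to 0.13). These values are relative to the shared loops. Scaled by all listed loops, those of APH vs DMSO and HU vs DMSO would lie below 0, and of those of APH vs H2O the 1 for different genes would stay above it.

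Single loops were called different where the scaled ratio was at least 1.5-fold in either direction and its 95% interval excluded 1. In APH vs DMSO 35 of the 629 differed (5.56%), against a background of 4.7% over all 9529 loops. Of these, 28 were higher (4.45%, background 2.28%) and 7 lower (1.11%, background 2.42%). In HU vs H2O 59 differed (9.38%, background 6.37%), with 52 higher (8.27%, background 3.41%) and 7 lower (1.11%, background 2.96%). In H2O vs DMSO 10 differed (1.59%, background 2.21%), with 6 higher (0.954%, background 1.13%) and 4 lower (0.636%, background 1.08%). Against the other vehicle 37 differed in APH vs H2O (5.88%, background 5.87%) and 54 in HU vs DMSO (8.59%, background 5.86%). In total the APH share lay near the background, the HU share above it, and both leaned to the higher side under this scaling. The lean was also found over 1587 loops of 10 to 50 kb, which include the 629. There 72 were higher and 15 lower in APH vs DMSO, where 217 and 231 of all 9529 loops were. In HU vs H2O 108 were higher and 20 lower, where 325 and 282 of all 9529 loops were. Scaled by all listed loops, APH vs DMSO gave 4 higher (0.636%, background 0.21%) and 67 lower (10.7%, background 14.8%). That scaling gave 64 higher (10.2%, background 4.24%) and 6 lower (0.954%, background 2.26%) in HU vs H2O, and 0 higher (background 0.084%) and 37 lower (5.88%, background 5.49%) in H2O vs DMSO. It shifts loops of every span alike. Short loops also have more counts than long ones, and a 1.5-fold difference is called more readily with more counts.

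In all, 12 loops were higher in both drug contrasts, which share no library, and 0 were lower in both or went opposite ways. This is 1.91% of the 629 loops, against a background of 0.462% over all spans (44 of 9529), where 0.273% were lower in both. With the vehicles exchanged 9 were higher in both (background 0.514%), 7 of them among the 12. The other 5 were not called in 1 of the exchanged contrasts, KCNH2 in HU vs DMSO and IP6K3, C1QTNF1, CEACAM8 and LMO2 in APH vs H2O. Scaling each library by all its listed loops adds -0.38 to APH vs DMSO ratios and 0.05 to HU vs H2O ratios. The lowering is smaller than the 1.5-fold limit, so all 12 had to stay above 0. With this scaling the APH interval still excluded 1 for 4 of them. Over the 629 loops the log2 ratios of the contrasts had a Pearson r of 0.31, as a description, over loops that share libraries, depth and in part anchors. The r over all 9529 loops was 0.23.

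**Figure D4:**
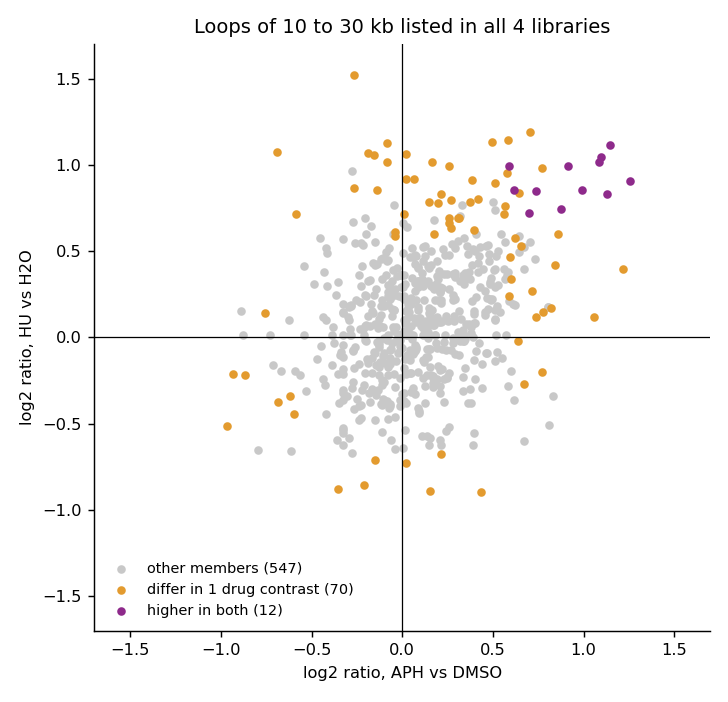
Log2 ratio of HU vs H2O (vertical axis) against APH vs DMSO (horizontal axis) for the 629 loops of 10 to 30 kb listed in all 4 libraries, 1 point a loop. The 12 purple points are at least 1.5-fold higher in both contrasts with intervals that exclude 1, and no point is called lower in both. Scaling by all listed loops would shift the horizontal values by -0.38.

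Several of the 12 lie at genes of membrane and metabolic proteins, without a common list having been tested. USP2, a deubiquitinase gene on chromosome 11, holds both anchors of a 15 kb loop (119355001 to 119375000) with 130 counts in APH and 55 in DMSO, and 122 in HU and 62 in H2O. Both drug libraries had more than every vehicle library, and the log2 ratios were 0.91 (0.45 to 1.40) and 0.99 (0.54 to 1.46). A 15 kb loop from SLC2A4, the insulin-responsive glucose transporter gene, over YBX2 on chromosome 17 (7280001 to 7300000) had 73 and 38, and 68 and 38 counts. Its ratios were 0.61 (0.03 to 1.22) and 0.86 (0.26 to 1.47). A 25 kb loop from an annotated KCNH2 start, shown above, to a bin outside protein-coding genes had 75 and 30, and 50 and 28 counts. KCNH2 encodes a potassium channel of the heart, and the ratios were 0.99 (0.37 to 1.66) and 0.85 (0.16 to 1.57), with HU vs DMSO at 0.64 (-0.05 to 1.34).

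NECTIN4, a cell adhesion gene, was joined to the promoter of KLHDC9 by a 25 kb loop on chromosome 1 (161070001 to 161100000). It had 106 counts in APH and 52 in DMSO, and 88 in HU and 54 in H2O, with ratios of 0.70 (0.21 to 1.21) and 0.72 (0.22 to 1.24). IP6K3, an inositol phosphate kinase gene, holds both anchors of a 20 kb loop on chromosome 6 (33740001 to 33765000) with 66 and 24, and 74 and 42 counts. Its ratios were 1.13 (0.44 to 1.87) and 0.83 (0.27 to 1.42), but the vehicles stood 0.69 apart (-0.07 to 1.48). Against the other vehicle APH was at 0.44 (-0.14 to 1.03), so the IP6K3 loop is not called in APH vs H2O. At C1QTNF1, a secreted protein gene of the C1q family, a 25 kb loop on chromosome 17 had 46 and 20, and 43 and 26 counts, with ratios of 0.87 and 0.74, and APH vs H2O was at 0.61 (-0.11 to 1.36).

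The remaining 6 of the 12 have no anchor on a protein-coding gene. A 25 kb loop on chromosome 19 (46515001 to 46545000), 19134 bases from PNMA8B, had 75 counts in APH and 27 in DMSO, and 62 in HU and 29 in H2O. Its ratios were 1.15 (0.49 to 1.84) and 1.11 (0.45 to 1.80), and the vehicles lay at -0.01. A 30 kb loop on chromosome 7 (73825001 to 73860000) encloses CLDN4, a tight junction gene, and METTL27, with 66 and 22, and 50 and 27 counts and ratios of 1.26 and 0.90. A 30 kb loop around CEACAM8, a granulocyte surface protein gene, on chromosome 19 had 43 and 16, and 55 and 27 counts with ratios of 1.10 and 1.04, where H2O stood 0.64 above DMSO (-0.31 to 1.63) and APH vs H2O was at 0.46 (-0.27 to 1.21). A 30 kb loop on chromosome 8, nearest to the defensin gene DEFB136, had 40 and 15, and 34 and 17 counts.

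Both other loops of these 6 are on chromosome 11. One of 25 kb (65225001 to 65255000) lies 6962 bases from POLA2, which encodes the B subunit of the DNA polymerase alpha-primase complex, with 67 and 32, and 64 and 36 counts. Its ratios were 0.74 (0.11 to 1.39) and 0.85 (0.23 to 1.48). Another, of 20 kb (33805001 to 33830000), lies 28576 bases from LMO2, a transcriptional adaptor gene of blood progenitors and germinal centre B cells. It had 98 and 52, and 112 and 57 counts, with ratios of 0.59 (0.09 to 1.10) and 0.99 (0.52 to 1.48), and APH vs H2O, at 0.57 (0.09 to 1.07), was below the 1.5-fold limit. In each of the 12 loops both drug libraries had higher raw counts than both vehicle libraries. Choosing the 12 by their ratios favours this order, and raw counts are not scaled for the larger total of APH.

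**Figure D5:**
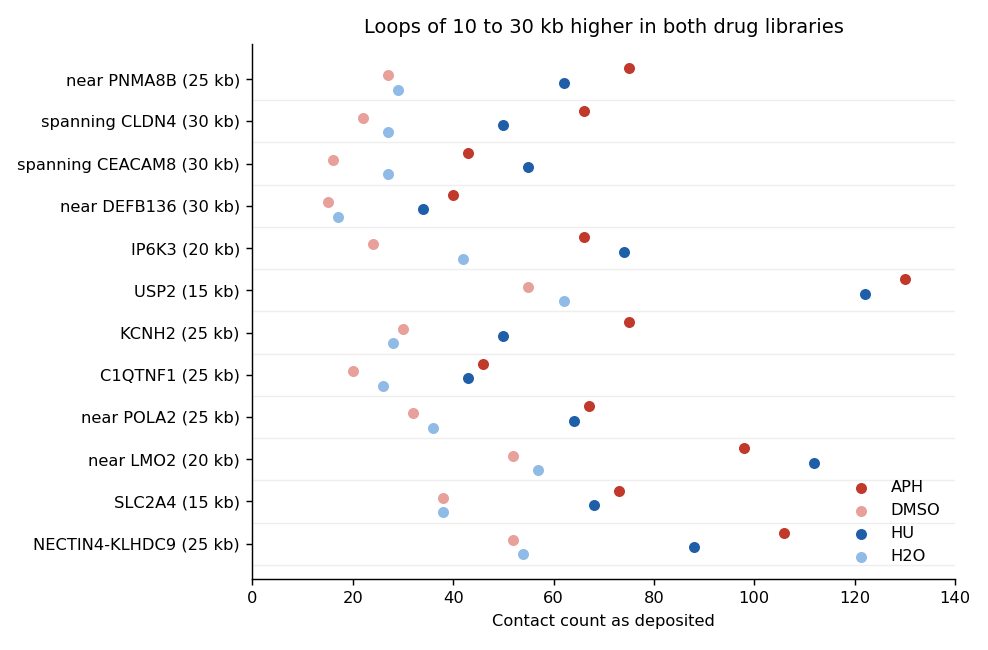
Deposited contact counts (horizontal axis) of the 12 loops higher in both drug contrasts (rows, named by the genes on their anchors, enclosed by them or nearest), 1 point a library. In each row the APH and HU points lie to the right of the DMSO and H2O points, as in USP2 with 130 and 122 against 55 and 62. The loops were chosen for higher ratios, which favours this order.

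Other loops were higher in 1 drug contrast. PTPN5, a tyrosine phosphatase gene, carried a 25 kb loop with 73 counts in APH and 25 in DMSO, a ratio of 1.22 (0.55 to 1.94), while HU vs H2O was 0.40 (-0.20 to 1.01), the vehicles were 0.67 apart and APH vs H2O was 0.55 (-0.01 to 1.13). A 30 kb loop to CSRP1 enclosing PHLDA3, a p53-induced inhibitor of AKT, had 47 and 18 counts in APH and DMSO (1.06, 0.25 to 1.93) and 29 and 27 in HU and H2O. There H2O stood at 0.47 (-0.45 to 1.42) against DMSO, and the PHLDA3 loop was not called in APH vs H2O, at 0.59 (-0.12 to 1.33). With HU, the 25 kb loop to MMP9, a gelatinase gene, had 51 counts against 18 in H2O, the highest ratio at 1.52 (0.72 to 2.38), while APH had 23 and DMSO 22. NDRG2 and RNASE7, an antimicrobial ribonuclease gene, shared a 30 kb loop anchor with 52 counts in HU and 23 in H2O (1.19, 0.46 to 1.97). The collagen gene COL8A2 (1.15), the locus of the serine protease gene PRSS22 (1.13), the creatine kinase gene CKB (1.13) and the osteoblast transcription factor gene SP7 (1.06) followed. At CKB the vehicles were -0.59 apart (-1.30 to 0.11) with HU vs DMSO at 0.54 (-0.03 to 1.13), and at SP7 they were -0.30 apart. A 25 kb loop on chromosome 19 (40140001 to 40170000), nearest to the kinase gene MAP3K10, had 81 and 39 counts in HU and H2O (1.07, 0.50 to 1.66) and 55 and 50 in APH and DMSO.

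Lower loops were few under the scaling by shared loops. In APH vs DMSO the 7 lower loops began with 1 near the histone gene H2BC13 on chromosome 6, at 18 counts in APH and 28 in DMSO (-0.97, -1.91 to -0.06). Loops at C12orf75 (-0.93), at SAE1, a SUMO-activating enzyme gene, enclosing the proapoptotic gene BBC3 (-0.87), and at RUBCN, an autophagy regulator gene (-0.68), were lower, as was the EHBP1L1 loop above. The 10 kb loop at the promoter of CCNL1, a cyclin gene, had 49 and 60 counts (-0.62, -1.19 to -0.05), and the loop between IFIT3, an interferon-induced gene, and LIPA, the lysosomal acid lipase gene, 63 and 76 (-0.60, -1.10 to -0.10). In HU vs H2O the loop to BHLHE23 had 25 counts in HU and 47 in H2O (-0.89, -1.66 to -0.17). PSIP1, a chromatin reader gene, was at 31 and 58 (-0.89), a loop near REEP5 at -0.88, and GFOD1 at 47 and 86 (-0.86). CLDN14 (-0.73), WNT10A (-0.71) and ITPR1, a calcium release channel gene (-0.67), were lower too, and the 10 kb loop within LIPH, at -0.58 (-1.08 to -0.10), was below the 1.5-fold limit. In CLDN14 and ITPR1 H2O stood above DMSO, by 0.55 (0.06 to 1.05) and 0.51 (0.06 to 0.96).

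Most of these lower loops were not called against the other vehicle. Their ratios stayed below 0 there, and a lost call does not show that the contrasts differ. In APH vs H2O the C12orf75 loop stayed different, at -1.15 (-1.91 to -0.43), and the other 6 did not, at -0.74 for H2BC13, -0.51 for SAE1, -0.28 for LIPA, -0.21 for EHBP1L1, -0.18 for RUBCN and -0.12 for CCNL1. H2O itself stood at -0.51 (-1.12 to 0.10) against DMSO at RUBCN and at -0.50 (-1.09 to 0.08) at CCNL1. In HU vs DMSO the loop near REEP5 and that at WNT10A, at -0.73 (-1.46 to -0.03), stayed different. There BHLHE23 was at -0.63 (-1.42 to 0.15), GFOD1 at -0.45, PSIP1 at -0.39, CLDN14 at -0.18 and ITPR1 at -0.16, with intervals that included 1.

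Of the class, 334 loops were listed by APH and HU alone, and 85 by DMSO and H2O alone. These were 5.76% and 1.47% of the class, where 5.68% and 2.12% of loops over 30 kb had these patterns, so the share listed by both drug libraries alone lay at that of longer loops. The drug lists are together the longer ones, and APH and H2O shared 215 of their own, APH and DMSO 141, HU and H2O 154, and DMSO and HU 90. At USP3, a histone deubiquitinase gene on chromosome 15, the promoter bin (63500001 to 63505000) had different partners in the lists. APH (126 counts) and HU (100) listed a 15 kb loop from 63485001, and DMSO (63) and H2O (63) listed a 30 kb loop from 63470001. The observed to expected ratio was 2.32 in APH and 2.27 in HU for the first, and 2.28 in DMSO for the second. A loop of 30 kb 62392 bases from IRF8, a B cell transcription factor gene, had 104 counts in APH and 102 in HU with ratios of 2.01 and 2.45. A 15 kb loop 3076 bases from GRB2, an adaptor gene of receptor signalling, had 54 counts in DMSO and 88 in H2O with ratios of 2.23 and 3.65. These are among the loops of each kind with most counts, and most stood close to the lowest listed ratio of 2, so an unlisted pair here is not a measured absence.

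Of 19974 protein-coding genes, 2777 (13.9%) had an anchor of a 10 to 30 kb loop on their body. By gene body FMNL3, a formin gene of actin assembly, had most, with 11 loops, of which APH listed 6, DMSO 0, HU 3 and H2O 5, and none was in all 4 libraries. The most counted of them had 61 counts and was listed in HU alone. Counted at gene ends, to within 5 kb, FMNL3 had 6 loops, against 12 for COXFA4L2 and 10 each for ARHGEF17 and NDRG2. Genes with 10 loops were ARHGEF17, COXFA4L2, NDRG2, PTAFR (platelet activating factor receptor), TFEB (a transcription factor of lysosomal genes), TMCC2, UBASH3A (a regulator of lymphocyte receptor signalling) and VDAC1 (a channel of the mitochondrial outer membrane). Loops on 1 gene overlap and share bins. At TMCC2 2 nested loops were in all 4 libraries, of 30 kb with 111 counts in APH and 80 in DMSO, and 99 in HU and 75 in H2O, and of 25 kb with 91 and 46, and 70 and 49. At TFEB 3 were in all 4, and the most counted of these, of 25 kb, had 48 and 37, and 44 and 38 counts. MEF2B, a transcription factor gene of germinal centre B cells, had 9 loops, 4 of them in all 4 libraries.

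The gene lists used as markers differed in how many genes carried a short loop. Of 38 B cell identity genes 16 did (42.1%, where the share over all genes was 13.9%), against 2 of 20 T cell genes (TCF7 and CD2) and 2 of 21 myeloid and erythroid genes (CSF1R and CSF3R). TCF7, however, had 8 short loops, more than any of the B cell genes, with 2 listed in APH, 3 in DMSO, 4 in HU and 4 in H2O. MS4A1, CD79A, CD79B and PAX5, markers of B cells, carried none. Loops do not measure expression. POU2F2, the gene of the B cell transcription factor OCT2, had 6 loops, 4 of them in all 4 libraries, with 257 summed counts in APH and 198 in DMSO, and 199 in HU and 228 in H2O. Its log2 ratios were 0.05 (-0.22 to 0.32) and -0.18 (-0.46 to 0.10). BLNK, an adaptor of the B cell receptor, CD74, the invariant chain gene, and SPI1, the gene of PU.1, had loops in all 4 as well, and every interval of their ratios included 1. Over the 4 genes APH vs DMSO had a median of 0.01 and HU vs H2O of -0.16, where all 544 genes with such loops stood at 0.06 and 0.10.

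Immediate early and rapidly induced genes carried short loops at a similar share, 12 of 29 (41.4%). NR4A1, an orphan nuclear receptor gene, had 102 counts in APH and 61 in DMSO, and 104 in HU and 59 in H2O over 2 loops. HU stood above H2O there at 0.83 (0.36 to 1.32) and APH above DMSO at 0.41 (-0.06 to 0.90). JUNB stood at 0.45 (0.05 to 0.86) in HU vs H2O with 122 and 90 counts, but H2O stood below DMSO at -0.47 (-0.88 to -0.06). DUSP2, FOSB and PIM1 had intervals that included 1 in every contrast. Over these 5 genes APH vs DMSO had a median of 0.06 and HU vs H2O of 0.10, the same as over all 544 genes.

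The other lists lay on both sides of the share of all genes. Of 52 genes of DNA replication and its checkpoint 4 carried a short loop (7.69%), TIPIN, CDT1, RFC2 and RFC5. Of 19 genes of cohesin, its regulators and CTCF 4 did, among them RAD21, a cohesin subunit gene, and CDCA5, which encodes sororin. Of 26 p53 and DNA damage targets 6 did (23.1%), among them BTG2 with 3 loops. None of the genes in these 3 lists had a loop in all 4 libraries. Of 28 genes on the list of NF-kB and viral latency targets 8 did (28.6%), and of these CCR7, a chemokine receptor that guides lymphocytes to lymph nodes, had a loop in all 4, with ratios of -0.21 in each drug contrast and intervals that included 1. Of 39 HOX genes 8 did, 7 of them in APH, 2 in DMSO, 1 in HU and 0 in H2O, and overlapping genes such as HOXC4, HOXC5 and HOXC6 share their loops. Replication-dependent histone genes (7 of 51), ribosomal protein genes (10 of 78) and common fragile site genes (3 of 24, AUTS2, DAB1 and MAGI2) were near the share of all genes. Of 19 MHC class I and II genes 0 carried a short loop. A window of chromosome 6 set around the MHC held 24 listed loops of any span, 10 of them short, where the whole chromosome held 2557 loops. This window is wider than the MHC and takes in the IP6K3 loop described above, so not all 10 lie in the MHC. Loops of any span were thus few there, and the 0 cannot be read as a lack of short loops alone. Why few were listed there was not tested.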

How the data were processed

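SMC1 HiChIP loops of GM12878 cells were analysed in 4 libraries, 1 a group. The tools bcl2fastq 2.17 and MACS3 3.0.1 and the build hg38 are named per the submitters' processing notes. How reads were aligned, loops called and calls filtered is not given in the sources used here. Each library's deposited list has no header, so columns were read from their values. The authors deposited whole contact counts per pair of 5 kb bins, not normalized, a signal column taken as the expected count, and a column taken as an adjusted p-value, below 0.01 throughout. An unlisted pair is not a 0. The cluster score and cluster type that the authors deposited served only for singleton shares, which are not reported.

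Loops were matched by both bins. For loops that all 4 libraries list, counts were divided by the library's total over them. Ratios carry exact conditional binomial 95% intervals and shares exact Clopper-Pearson 95% intervals. They cover counting error only, and no p-value was computed. Genes and promoters came from RefSeq tables (GRCh38.p14). Named loops are the 10 with most counts, the 8 highest and 8 lowest per drug contrast with at least 40 counts in the pair, an interval excluding 1 and a log2 ratio further from 0 than for H2O vs DMSO, and those different the same way in both contrasts. Members and lists were chosen with earlier results of these data known. Python 3.11.15, numpy 2.4.6, pandas 2.3.3, scipy 1.17.1 and matplotlib 3.10.9 were used, and the steps were tested on simulated data. Alternatives covered scaling, minimum count, thinning, span limits, vehicle, expected count, fold and gene ends.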

Additional observations from a re-analysis of the deposited data

Results flagged for a closer look

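Only the loops named by the rules above were searched here, not the whole class. For 2 of them the intervals of HU vs H2O and APH vs DMSO did not overlap and the ratios had opposite signs. The contrasts thus differed at these 2 loops, and both were named for their high HU vs H2O ratios, which favours such a difference. The difference itself was not tested, since each group is 1 library. At the 25 kb loop to MMP9 on chromosome 20 the log2 ratio of HU vs H2O was 1.782 higher than that of APH vs DMSO, with 51 counts in HU and 18 in H2O, and 23 in APH and 22 in DMSO. At the 25 kb loop nearest to MAP3K10 on chromosome 19 it was 1.261 higher, with 81 counts in HU and 39 in H2O, and 55 in APH and 50 in DMSO. H2O stood at -0.41 (-1.39 to 0.56) against DMSO at MMP9 and at -0.48 (-1.12 to 0.16) near MAP3K10.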

How the results depend on the processing

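No paired analysis was possible because each group holds 1 library, and no library could be left out in turn. The share of loops of 10 to 30 kb moved with the count limit and the span limits in every library. At a minimum of 24 counts it was 19.48% in APH, 17.28% in DMSO, 20.18% in HU and 19.94% in H2O. With counts thinned to the lowest total it was 13.44% in APH, 12.57% in HU and 11.6% in H2O, and DMSO has the lowest total. Thinning re-applied the count limit alone, which removes more long loops than short ones, so these shares do not equalise depth. From 10 to 25 kb it was 8.308%, 7.305%, 8.933% and 8.451% in APH, DMSO, HU and H2O, from 10 to 50 kb 23.82%, 20.37%, 25.08% and 21.02%, and from 15 to 30 kb, added after seeing the data, 9.505%, 7.928%, 10.03% and 7.886%. At 24 counts and at 10 to 25 kb HU and H2O had overlapping intervals.

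The pooled log2 ratio of APH vs DMSO reversed to -0.2782 when scaled by all listed loops. It was 0.174 when scaled by shared loops of 100 kb or more and 0.04501 after division by the expected count. For HU vs H2O these scalings gave 0.1647 and 0.1915, loops listed in both libraries 0.06781, and 10 to 25 kb 0.09356. For H2O vs DMSO scaling by all listed loops gave -0.2206 and the expected count -0.06348. The count of loops that differed in APH vs DMSO was 71 when scaled by all listed loops, 23 at 10 to 25 kb, 87 at 10 to 50 kb and 7 at 2-fold. In HU vs H2O it was 31 at 10 to 25 kb, 128 at 10 to 50 kb and 14 at 2-fold. In H2O vs DMSO it was 37 when scaled by all listed loops, 6 at 24 counts, 6 at 10 to 25 kb, 26 at 10 to 50 kb, 1 at 2-fold and 18 by the interval alone. Called loops were counted among 412 at 10 to 25 kb, 1587 at 10 to 50 kb, 499 at 24 counts and 629 otherwise. For 2-fold, the interval alone and 24 counts no share over loops of every span is given. Those counts therefore have no background to be read against. Wider or narrower spans test more or fewer loops. For the other moves the cause was not tested. Leaving out each chromosome in turn kept the pooled ratios within 0.09344 to 0.1028 for APH vs DMSO, 0.1118 to 0.1249 for HU vs H2O and 0.01374 to 0.02702 for H2O vs DMSO. With loops assigned to gene ends, COXFA4L2 had 12 loops, FMNL3 6, PTAFR 6, TFEB 5, UBASH3A 5 and VDAC1 3. Of the remaining values under alternatives, 41 main values and 4 gene counts stayed within their limits. Depth limits loops with few counts, and total depth is unknown.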
